A study of Mus musculus with 37 samples.

Results

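The genes described here are 10 antiviral effectors of the interferon response: Mx1, Mx2, Ifit1, Ifit2, Ifit3, Oasl1, Oasl2, Oas1a, Isg15 and Rsad2. They were chosen by gene name from a deposited list of translated open reading frames (ORFs), each of which runs in frame from its start codon to its stop. All ORFs of a family, meaning those with the same gene name on one chromosome and strand, were kept, which gave 31 of 22367 ORFs and 9 of 10418 families. No ORF carried the name Ifit3. The list itself is the readout that put these genes forward, so their presence and scores are described without a test.

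The list came from ribosome profiling, in which the RNA fragments that ribosomes shield from nuclease are sequenced, of dendritic cells grown from the bone marrow of C57BL/6J mice aged 6 to 8 weeks. The 37 libraries were of naive cells and of cells given LPS, a bacterial cell wall component, at 100 ng/mL, or mock treatment, at 8 time points from 0.5 to 12 h. Cycloheximide, a blocker of elongation, was added at 100 ug/mL for 1 min in 16 LPS, 8 mock and 2 naive libraries, and no inhibitor in 8 LPS libraries and 1 naive library. Harringtonine (1 ug/mL, 5 min) and lactimidomycin (50 ug/mL, 30 min), which stall ribosomes at start codons, were each used in 1 library that mixed LPS time points. The list was made for all libraries together, so it has no value per library, no replicate and no depth, and LPS was not compared with mock. Each ORF has a score from the authors, between 500 and 991 in this list, whose scale is not given in the sources used here. Of 21 dendritic and myeloid cell markers, 18 had an ORF, and Flt3, Clec9a and Siglech did not. Of the markers of other cells, ORFs were listed for 6 of 6 of macrophages, 7 of 7 of neutrophils, 4 of 5 of fibroblasts, and 1 each of 5 T cell, 4 B cell and 4 mast cell markers. The share over all genes is not given here, so these marker counts are not read as evidence of cell type.

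Type I interferon, which LPS-treated dendritic cells secrete, binds a receptor whose kinases activate transcription factors in the cell. These act through the interferon-stimulated response element (ISRE) in the promoters of many genes, among them these effectors. Mx proteins are dynamin-like GTPases that block viruses, IFIT proteins are tetratricopeptide repeat proteins of which Ifit1 binds foreign RNA 5' ends, and OAS enzymes make 2'-5' oligoadenylates, a second messenger, when they bind double-stranded RNA. Isg15 is a ubiquitin-like modifier, and Rsad2 (viperin) makes a nucleotide that terminates viral RNA chains.

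The promoter windows were read first, since the response element is the sequence that these genes are known to share. RefSeq windows of 300 bases (250 before to 50 after the gene start, GRCm38.p6) were at hand for 8 of the 10 genes, with none for Mx1 and Mx2. The ISRE-like motif searched was GAAANNGAA on either strand, which reads TTCNNTTTC on the other strand, with overlapping matches counted. It was found for 5 of the 8 genes, Ifit1, Ifit3, Oas1a, Isg15 and Rsad2, against 9.76% of 27025 genes with a window. Ifit2, which has a pair of windows, Oasl1 and Oasl2 held no match. The Ifit2 windows lie at its RefSeq starts, and sequence near its listed start codon, 19683 genome bases from the listed transcript start, was not searched. The matched stretches are shown 5' to 3' on the strand of the gene, with the matches in capitals.
Ifit1, chr19:34640772-34640821, plus strand: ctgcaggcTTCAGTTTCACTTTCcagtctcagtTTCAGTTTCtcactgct
Ifit3, chr19:34583366-34583443, plus strand: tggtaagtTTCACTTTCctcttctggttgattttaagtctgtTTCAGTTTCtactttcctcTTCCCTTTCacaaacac
Oas1a, chr5:120907523-120907553, minus strand: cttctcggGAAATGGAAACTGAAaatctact
Isg15, chr4:156200868-156200904, minus strand: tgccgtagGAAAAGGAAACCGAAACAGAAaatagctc
Rsad2, chr12:26456555-26456579, minus strand: gtccaactTTCATTTTCagaaaaca

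Ifit1, Ifit3 and Isg15 each had 3 matches, Oas1a had 2 and Rsad2 had 1. Distances are counted from the gene start that sets the window. In Isg15 the 3 matches overlapped each other and ran from 78 to 58 bases before the gene start. In Ifit1 they lay between 109 and 76 bases before it, and in Ifit3 between 155 and 94. The matches of Oas1a lay closest to the RefSeq gene start, 20 to 6 bases before it. Within the 150 bases before the gene start the same 5 genes held a match, against 4.61% of all genes. A match is a description of letters, and binding was not measured here.

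**Figure D1:**
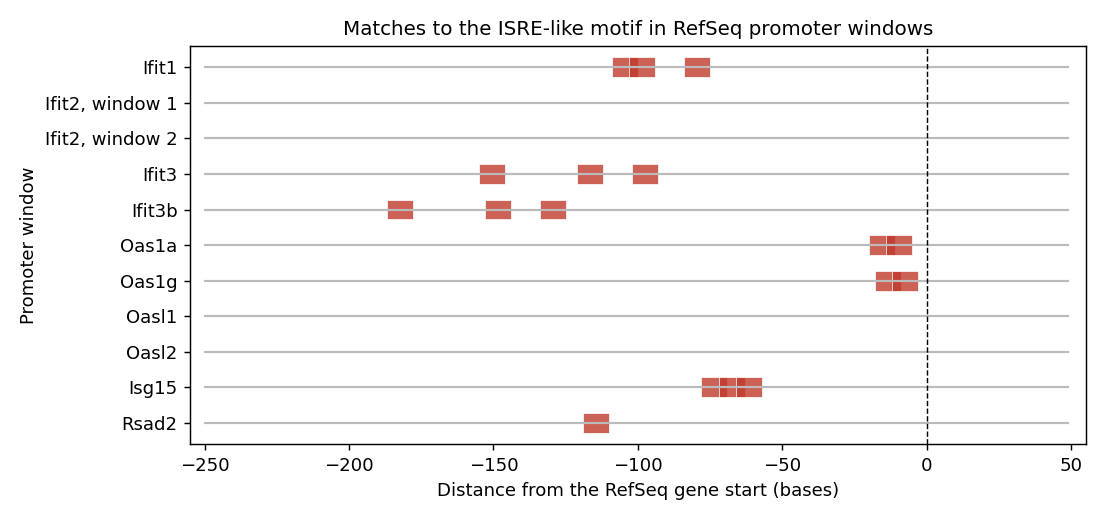
Positions of matches to the ISRE-like motif (red boxes) in RefSeq promoter windows, plotted by distance in bases from the gene start (dashed line). Ifit1, Ifit3 and Isg15 show 3 matches each, Oas1a 2 and Rsad2 1. Ifit3b and Oas1g, near copies of Ifit3 and Oas1a, are drawn for comparison, and Ifit2, Oasl1 and Oasl2 have no box.

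The main ORF of a family is taken here as its longest. Most of the effectors had a main ORF with a score near the top of the list: 991 for Isg15, 990 for Oas1a, 989 for Ifit2 and Oasl1, 988 for Rsad2 and 970 for Ifit1. These 6 genes scored at or above the upper quartile of all main ORFs, 968. The 990 of Oas1a belongs to an ORF that begins at Oas1a and ends at its neighbour Oas1g, as described below. The 367-codon ORF of that family that lay wholly at Oas1g scored 922. Mx1 at 828, Mx2 at 703 and Oasl2 at 533 lay below the median of all main ORFs, 926. The score of the longest Oasl2 ORF was matched or undercut by only 2.39% of main ORFs. Shorter ORFs of these families scored higher, among them 947 for the 508-codon ORF of Oasl2 and 957 for the 309-codon ORF of Mx1. The 111-codon ORF of Mx2 scored 705. The median over the 9 main ORFs was 988, and their median length was 463 codons (stop codon not counted) against 435 for all families.

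**Figure D2:**
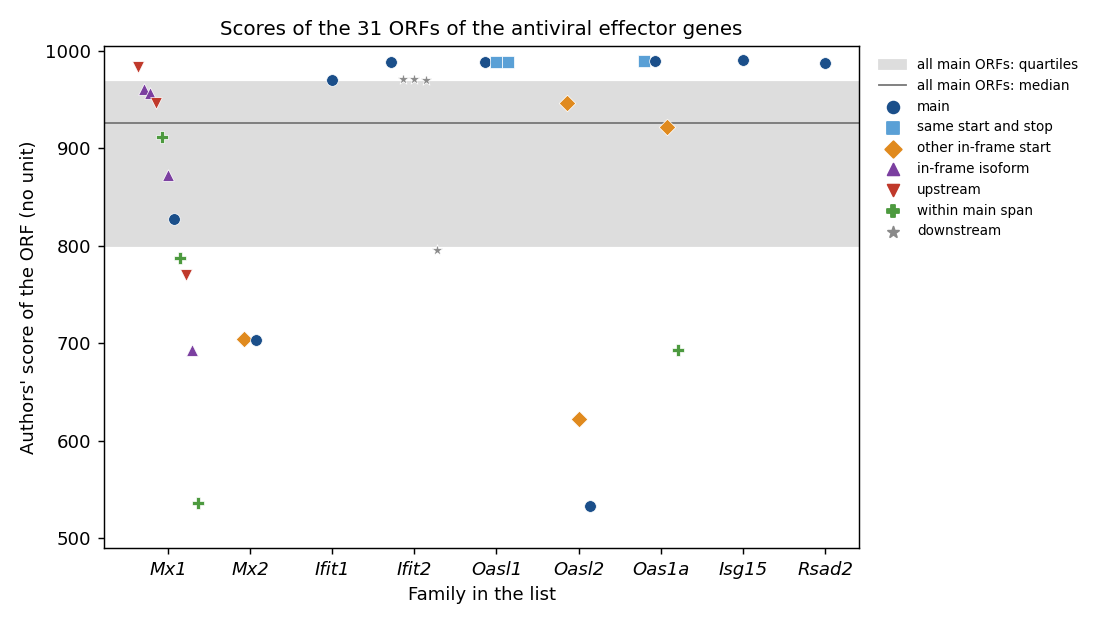
Authors' score of each of the 31 ORFs by family, with colour and shape giving the class of the ORF against the main ORF of its family. The grey band and line are the quartiles (800 to 968) and median (926) of all 10418 main ORFs; Isg15, Ifit1 and Rsad2 have 1 ORF each, and Mx1 has 11 that spread from 536 to 983.

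Isg15, Ifit1 and Rsad2 were listed with a single ORF each, as were 43.7% of all families. The Isg15 ORF had 161 codons (chr4:155573693-155574817, minus strand, mm9, as are all coordinates of ORFs here, counted from 1). Its start codon alone, 3 coding bases, lay in one exon and the other 483 bases in the next. The Rsad2 ORF had 362 codons in 6 coding exons (chr12:27130271-27141284, minus strand), of which the first held 349 coding bases after a leader, the part of the transcript before the start, of 33 bases. The RefSeq window of Rsad2 reaches past the gene start far enough to read this start codon, which is shown with the coding letters in capitals (window chr12:26456403-26456702, minus strand, GRCm38.p6).
Rsad2, start region: gtgcctatcaccATGGGGATGCTGGTGCC
The ATG lay 33 bases after the RefSeq gene start, the same distance as the listed leader. A second ATG followed 6 bases later, and no ORF was listed from it. Among the 854 main ORFs with a leader of up to 47 bases in a first exon and a RefSeq window under the same name, 59% had an ATG at the listed distance.

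The IFIT ORFs shared an exon plan in which the start exon held nearly none of the coding sequence. Ifit1 had 463 codons (chr19:34715473-34723347, plus strand), with 5 coding bases in the start exon and 1387 in the next. Ifit2 had 470 codons (chr19:34644856-34648964, plus strand), with 5 and then 1408. The ORFs at the places of Ifit3 and Ifit3b, described next, had 403 codons with 5 and then 1207. Over all families, 2.71% of main ORFs were spliced with 5 or fewer coding bases in the first coding exon. Ifit1, Ifit2, Isg15 and Mx1 were of this kind, 4 of the 9 families. Gm14446, the listed name of the related gene Ifit1bl1, had 2 ORFs of 470 codons, scored 969 and 730. Each had 32 coding bases in its start exon. For Ifit3b the RefSeq window reads across the end of the start exon, and is shown because it gives the 5 coding letters in capitals with the intron that follows (window chr19:34607707-34608006, plus strand, GRCm38.p6).
Ifit3b, start region: cagatcaccatcATGAGgtcagtgc
The ATG lay 37 bases after the RefSeq gene start, the length of the listed leader, and the letters after the listed exon end were GT, the usual first letters of an intron.

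Ifit3, a partner of Ifit1, was in the list under the name of its neighbour Ifit2. The 5 ORFs of the Ifit2 family started at 3 places more than 10 kb apart. In the gene order of the naming table Ifit2 is followed by Ifit3, Ifit1bl1 and Ifit3b, and in the list the second and the third place lay on the 2 sides of Gm14446. The second and the third start were 24394 bases apart, and the RefSeq gene starts of Ifit3 and Ifit3b are 24411 bases apart in the other build. Their promoter windows begin at chr19:34583279 and chr19:34607707 there, which is not exactly the same spacing. The starts that set the windows were thus not all the starts used for this spacing. From the gene order and the spacing, the second place is called that of Ifit3 and the third that of Ifit3b. A 403-codon ORF with a score of 970 had its coding bases wholly at the place of Ifit3 (chr19:34658090-34662757). Another of 403 codons with a score of 796 lay wholly at that of Ifit3b (chr19:34682484-34687127). The listed transcript of the ORF at Ifit3 began 32963 genome bases before its start codon. The start codon of Ifit2 lay only 13234 bases before that of Ifit3, so this transcript began before the Ifit2 start codon.

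The other 2 ORFs of 403 codons, both scored 971, ran from the start of Ifit3 to the stop of Ifit3b (chr19:34658090-34687127). In the first of them 318 coding bases lay at the place of Ifit3 and 894 at that of Ifit3b, and in the second 738 and 474. Both sums equal the 1212 coding bases of the ORFs that stay at 1 place, so the joins fell inside the long coding exon and left its length unchanged. Of its codons (stop codon counted), the first joined ORF shared 106 in frame with the ORF at Ifit3 and 298 with the ORF at Ifit3b, and the second 246 and 158. The listed transcript of the first joined ORF also began 32963 genome bases before its start codon, and that of the second 101. The Ifit3 and Ifit3b promoter windows were nearly the same, with 259 identical letters and 1 mismatch beside 80 gap positions, and the 78-base stretch shown for Ifit3 recurred letter for letter in Ifit3b. How footprints that match both copies were placed is not given in the sources used here, so the scores of these ORFs cannot be assigned to 1 copy.

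**Figure D3:**
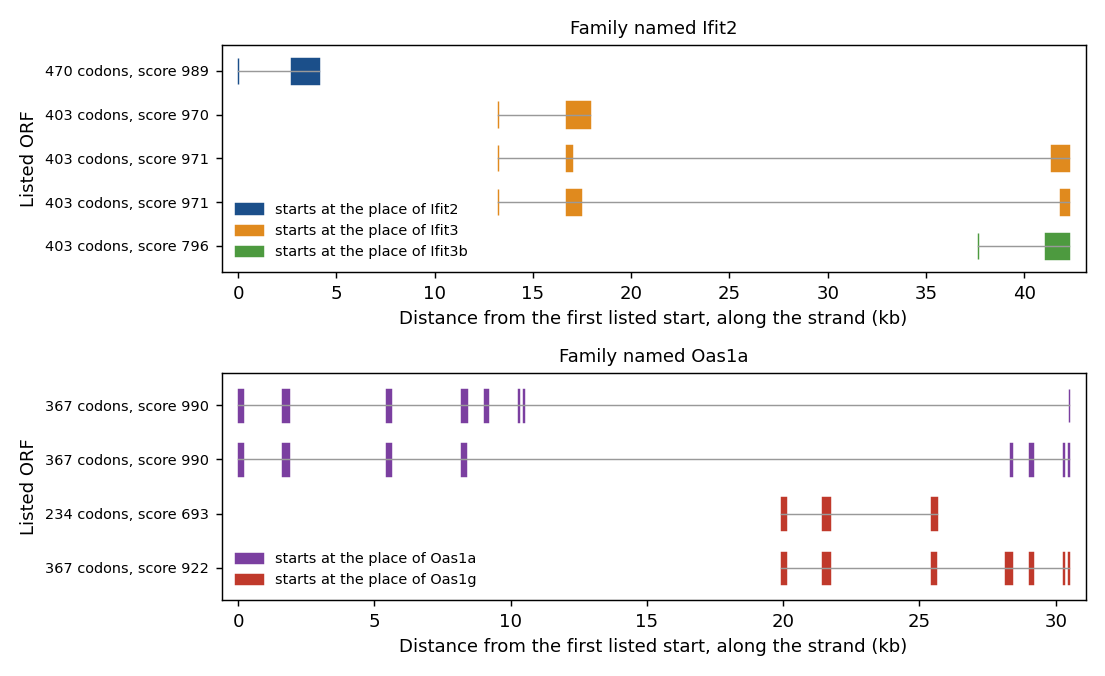
Coding exons (boxes) of the ORFs in the families named Ifit2 (top) and Oas1a (bottom), by distance in kb from the first listed start along the strand; colours give the gene at whose place the ORF starts. In the Ifit2 family 2 ORFs begin at Ifit3 and end at Ifit3b, and in the Oas1a family 2 begin at Oas1a and end at Oas1g.

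Oas1a, an oligoadenylate synthetase, showed the same pattern with its neighbour Oas1g. The 4 ORFs of the family started at 2 places 19914 bases apart, and the RefSeq gene starts of Oas1g and Oas1a are 19931 bases apart. Their promoter windows end at chr5:120887863 and chr5:120907775 in GRCm38.p6, again not exactly that spacing. Both ORFs from the place of Oas1a had 367 codons and a score of 990, and both ended at the stop of the other place (chr5:121327004-121357485, minus strand). In the first, 1090 coding bases lay at the place of Oas1a and 14 at that of Oas1g, and in the second 852 and 252. No ORF lay wholly at the place of Oas1a. At that of Oas1g a 367-codon ORF scored 922 (chr5:121327004-121337571), with coding exons of 183, 289, 185, 233, 154, 27 and 33 bases. In the joined ORFs the 33-base exon was divided into 19 and 14 bases, or the 233-base exon into 195 and 38, so that the total again stayed the same. A 234-codon ORF with a score of 693 had its first 2 coding exons in common with the 367-codon ORF at Oas1g and read past the end of the 185-base exon to a stop, for 233 coding bases there (chr5:121331846-121332078). These 2 ORFs shared 219 codons (stop codons counted). The windows of Oas1a and Oas1g had 261 identical letters and 33 mismatches, and the 31-base stretch with the motif was the same in both.

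The OAS-like genes each had ORFs that differed by exons. Oasl1, which carries ubiquitin-like repeats and is known to hold back Irf7 translation, had 3 ORFs of 511, 480 and 167 codons, all scored 989, from a common start to a common stop (chr5:115373421-115387427, plus strand). The 167-codon ORF joined 129 bases of the first coding exon to 375 of the last. The equal scores do not tell these versions apart. Splice variants or isoforms that share in-frame codons with the main ORF were found for Mx1, Oas1a and Oasl1, 3 of 9 families, against 23.1% of all. The Oas1a case was that of the 2 ORFs joined to Oas1g, so it was not a splice variant within 1 gene.

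Oasl2, which has both synthetase and ubiquitin-like domains, had 3 starts with a common stop. The longest ORF, of 510 codons, scored 533 (chr5:115347623-115361376, plus strand). The 508-codon ORF began 51 bases further on and scored 947 (chr5:115347674-115361376). The 390-codon ORF began 2233 bases after that and scored 622. The 508-codon ORF shared 494 codons with the longest one and used an exon of 142 bases where the other used 97. The score order thus ran against the length order for the first 2 starts. By name, another in-frame start was found for Mx2, Oas1a and Oasl2, 3 of 9 families against 23% of all. The Oas1a case was that of the ORF at Oas1g, so it was between genes rather than within 1.

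Mx1, 1 of the Mx GTPases, had 11 listed ORFs, where the other effectors had 1 to 5. C57BL/6 mice are known to carry a deletion of coding exons in Mx1 and to lack the functional protein, and RefSeq types both Mx1 and Mx2 as transcribed pseudogenes. In all, 4 of the ORFs shared at least 1 in-frame codon with the main one. The main ORF was one of 489 codons with a score of 828 (chr16:97669749-97682365, minus strand), and the one that shared the most codons with it was of 309 codons with a score of 957 (chr16:97673135-97682365). Both had the same start, whose exon held 3 coding bases, and shared their first 302 codons. The next exon began 2 bases later in the 489-codon ORF, which put it in another frame: the 309-codon ORF stopped after 24 coding bases, while the other went on through exons of 75, 258 and 231 coding bases. The stop of the 309-codon ORF was followed by 3 exon junctions, the last 1273 bases away, and that of the 489-codon ORF by none.

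The remaining in-frame versions of Mx1 varied at either end. The 323-codon ORF (score 873) began in another exon with 45 coding bases and shared 309 codons with the 309-codon ORF. The 288-codon ORF (score 693) left out the 79-base exon and shared 275. The 21-codon ORF (score 961) had the common start, then a 53-base exon and 10 bases of the next, and ended there. With the 489-codon and the 309-codon ORF it shared only 1 codon in frame, the start codon. Its stop was followed by 7 junctions. Only the 489-codon ORF among these 5 stopped in the last exon of its listed transcript.

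Mx1 was also the only one of the 9 families with an upstream ORF, one that ends before the main start, where 20.2% of all families had an ORF that ended before the main start or ran over it. There were 3, of 8, 28 and 3 codons. The 28-codon ORF (score 770, chr16:97682428-97682514) and the 3-codon ORF (score 983, chr16:97682451-97682462) overlapped each other in different frames, lay in the exon that holds the main start in the transcript of the 489-codon ORF, and stopped 62 and 85 bases before it. The 8-codon ORF (score 946, chr16:97684399-97684425) lay in a first exon, and stopped 281 bases before the main start on its listed transcript. The 3-codon ORF had the highest score of the Mx1 family. The list gives no count of footprints behind a score.

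The last 3 Mx1 ORFs lay within the span of the main ORF without sharing a codon with it in frame. They had 14 codons (score 912), 26 codons (788) and 9 codons (536). Those 3 and the upstream ORFs of 28 and 3 codons were listed on 1 transcript, which had a first exon of 4227 bases. Of that transcript, 4012 bases were intron in the transcript of the 489-codon ORF.

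**Figure D4:**
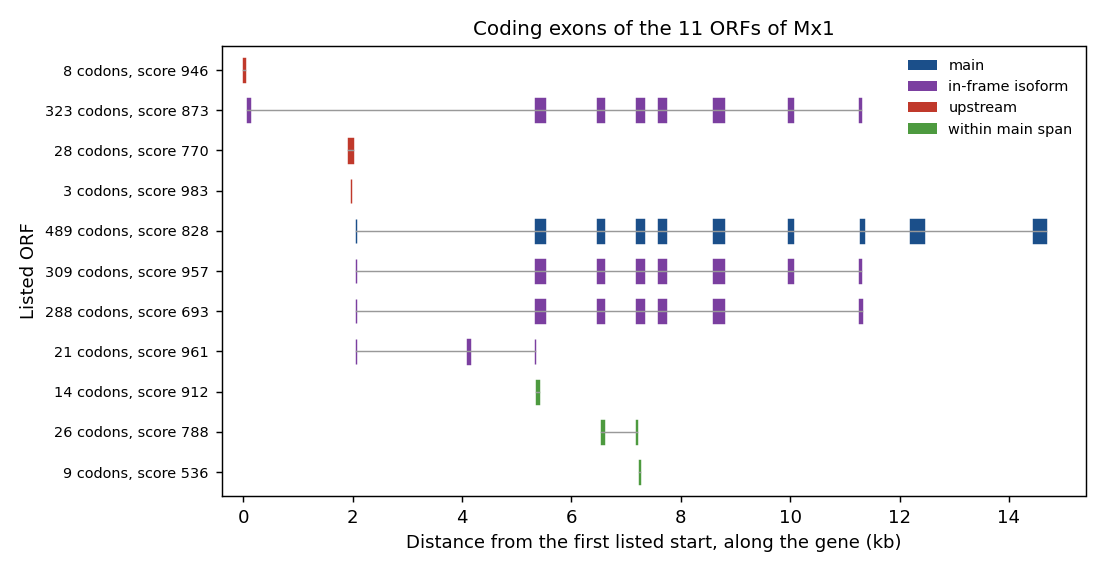
Coding exons (boxes) of the 11 Mx1 ORFs by distance in kb from the first listed start along the gene, with codons and score at the left and the class in colour. The ORFs of 489, 309, 288 and 21 codons share a start; the 489-codon ORF runs on to exons past the stop of the 309-codon ORF.

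Mx2 had 2 short ORFs with a common stop, of 118 codons (score 703, chr16:97772511-97777586, plus strand) and 111 codons (score 705, chr16:97772532-97777586). Their starts were 21 bases apart in one exon. The listed transcript had 8 exons, with a leader of 1229 bases before the longer ORF and 3 junctions after the stop, the last 466 bases away. A stop over 50 bases before the last junction is known to mark many transcripts for nonsense-mediated decay. Main ORFs of this layout made up 6.25% of all, and Mx2 and Ifit2 were the 2 of 9 among the effectors. In Ifit2 the listed transcript had 1 more junction, 557 bases after the stop, and its start codon lay 19683 genome bases from the transcript start.

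The wider interferon-stimulated genes were looked up in the same list. Of 67 other such genes, 57 had an ORF under their name, and the share over all genes is not given here. Ifit3b and Oas1g counted as not listed, since the ORFs at their places carry other names. The median main score of the 57 was 966, against 926 for all families. An upstream ORF was found in 9 of the 57 (15.8%), against 20.2% of all families, those over the main start included. Another in-frame start was found in 13 (22.8%), against 23% of all families. Slfn8, a Schlafen family member, had 11 upstream ORFs, and Slfn2 and Mlkl, the effector of necroptosis, had 2 each. Of the 11 genes of type I interferon receptor signalling, all were listed, with an upstream ORF in 4 and another in-frame start in 5. Ifnar1, a receptor chain, and Socs1, an inhibitor of JAK kinases, had 2 upstream ORFs each. Among related OAS genes, Oas3 had ORFs of 1138 and 1106 codons scored 970, Oas2 had 742 codons with a score of 549, and Oas1c had 349 and 26 codons scored 637.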

How the data were processed

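The authors deposited 1 list for all 37 libraries, with 1 line per ORF for its exons, coding limits and score. This deposited score is the authors' and is used only to describe or rank ORFs in this list. Bowtie2, TopHat and mm9 are named in the submitters' processing notes without version or role, and for the ORF caller and its settings the sources used here give no name. The codon number in the name equalled the coding bases less the stop codon for all 22367 ORFs. Families were split by chromosome and strand, and ORFs were classed by shared in-frame codons and position against the longest ORF. The rules were tested on simulated families of a single transcript each. These held no splice variants, in-frame isoforms or ORFs over the main stop, so the rules for those classes were not tested. Starts over 10 kb apart in a family were treated as separate places. Symbols and promoter windows came from RefSeq tables of GRCm38.p6, matched by name, and no coordinates were carried between builds. Promoters were aligned end to end with Biopython 1.88 (match 1, mismatch -1, gap -2 to open and -0.5 to extend), in Python 3.11.15.

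The members and lists were chosen with earlier results of these data known. The rule for named genes was all 10 members, their paralogs, and up to 6 genes of the other 2 lists with the most upstream ORFs, of which 1 is not reported here. No test was made, because the list has no value per library. The planned comparison with RefSeq protein lengths, and the residue at each start, were not run, since no protein sequences were used. Alternatives were minimum scores of 700 and 900, a minimum of 30 codons, 1 ORF per stop codon, the highest score as main ORF, numbered names kept apart, and, chosen after seeing the data, families divided by place.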

Additional observations from a re-analysis of the deposited data

How the results depend on the processing

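The list was made once from all libraries, so nothing here was measured in replicate. No paired analysis was possible because the list has no columns for libraries. The 31 ORFs fell to 19 with a score of 900 or more, 21 with 1 ORF per stop codon and 24 with a minimum of 30 codons. They fell to 25 with numbered names kept apart, 26 at a score of 700 or more and 28 with families divided by place. The count of families with an upstream ORF was 1 under each alternative but the minimum of 30 codons, which left 0. The 3 families with another in-frame start fell to 1 at a score of 900 or more. They fell to 2 at a score of 700 or more, with numbered names kept apart and with families divided by place. Keeping 1 ORF per stop codon gave 0 by definition, since these ORFs share the stop of the main ORF. The median main score of 988 became 988.5 at a score of 900 or more, 970 with numbered names kept apart and 979.5 with families divided by place. The median main length of 463 codons became 415 at a score of 900 or more, 367 with the highest score as main ORF and 433 with families divided by place. Division by place, chosen after seeing the data, put 10 genes in the list instead of 9, through Ifit3, and a score of 900 or more left 8. The 5 genes with the promoter motif stayed 5 of 8 with 1 more A in the motif, against 3.99% of all genes.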
